A study of Homo sapiens with 8 samples.

Results

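The genes described here are 6 ligands of the epidermal growth factor (EGF) receptor and 3 receptors of the ERBB family in a human colon cancer line given the transcriptional coactivator CRTC1. The ligands are EREG, TGFA, HBEGF, BTC, EGF and EPGN, and the receptors are EGFR, ERBB2 and ERBB3. They were taken by gene symbol in the platform annotation, and all 9 had 1 probe set each among the 22458 named genes of the table. The ligand gene AREG had no named probe set and was not analysed here. The cells were Caco-2 clone TC7, a single epithelial clone grown in high-glucose medium with serum. Subconfluent cultures received 200 ng of either a CRTC1 expression plasmid or its empty counterpart (pBS), were left overnight, and gave 4 arrays in each group. The share of cells that took up plasmid is not given in the labels. Values are deposited log2 expression, so a difference of 1 is a doubling. Nothing in the labels ties the 4 arrays of a group to separate cultures, so each p-value below reflects the scatter between arrays and that scatter may be technical.

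EGF receptor ligands are made as membrane-anchored precursors and are released by cell-surface proteases. A released ligand binds a receptor on the same or a neighbouring cell and brings receptor chains together in pairs, after which the receptor kinase switches on the RAS-ERK and PI3K-AKT cascades. In the intestinal epithelium this signalling supports growth and repair. CRTC1 works by binding CREB, a transcription factor that recognises the cAMP response element (CRE). EREG has been described as a gene that responds to cAMP.

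CRTC1 itself marked the groups as labelled, lying between 11.46 and 12.52 with the CRTC1 plasmid and between 5.48 and 6.30 with empty vector. It was the 1 gene of 22458 past an adjusted p of 0.05 in limma, a share of 0.00445%, and none of the 9 family members passed. Array medians ranged from 4.11 to 4.15. Of 12 colonic epithelial markers 11 were measured, and their summed log2 level lay between 81.17 and 84.44 with CRTC1 and between 82.66 and 84.48 with empty vector. The epithelial adhesion gene EPCAM was bright, with group means of 10.25 and 10.31. The enterocyte gene SI, at 2.82 and 2.97, and the differentiation keratin KRT20, at 3.60 and 3.35, were dim. Of the markers of other cell types, the mean level was at or above the median of all genes for 1 of 6 leukocyte, 2 of 7 fibroblast and 0 of 5 endothelial genes. The leukocyte gene above it was the lysosomal gene CD68, at 7.41 with CRTC1 and 7.48 with empty vector, while the defining leukocyte gene PTPRC was at 1.84 and 1.92. Summed log2 levels with CRTC1 and with empty vector ran from 21.92 to 22.98 and 22.75 to 23.38 for leukocyte markers. They ran from 22.98 to 23.65 and 22.48 to 23.28 for fibroblast markers, and from 15.06 to 15.55 and 14.46 to 15.85 for endothelial markers. None of these genes passed in limma. In each list 1 gene had an unadjusted p under 0.05, as did 5.94% of all genes. These were FCER1G at a log2 change of -0.31, PDGFRB at 0.42 and CLDN5 at 0.33. The PDGFRB groups did not overlap, which was also the case for 3.74% of all genes. PDGFRB was dim, with means of 2.95 with CRTC1 and 2.53 with empty vector. The part of these markers in the results below was not tested. The table has no detection calls, so a dim probe set could not be separated from background.

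The promoters of the family are shown first because CRTC1 acts through CREB at CRE sequences. RefSeq windows on GRCh38.p14, from 250 bases before each gene start to 50 bases after it, were found for 8 of the 9 members. ERBB3 had no entry. TGFA and EGFR each had more than 1 start, giving 10 windows in all. On either strand, 0 of the 8 genes held the complete CRE, TGACGTCA, which was present in 1.85% of all 35116 windows. The 5-base core TGACG, contained within that CRE, was found in EREG, EPGN and TGFA, 3 of the 8 genes, and in 24.6% of all windows. The TATA box letters TATAAA occurred in EREG, EPGN and 1 of the EGFR windows, against 11.5% of all windows. The AP-1 letters TGANTCA occurred in EGF, ERBB2 and 1 of the EGFR windows, against 7.71% of all windows. The unmeasured gene AREG held a complete CRE, beginning 65 bases before its start. Member counts are per gene and the shares are per window, so a gene with more than 1 start had more chances to match. These matches describe letters only. The stretches that hold TGACG before the start are printed 5′ to 3′ on the gene's strand, with TGACG and TATAAA in capitals. They are EREG at chr4:74365005-74365144 (plus strand), EPGN at chr4:74308410-74308469 (plus strand) and TGFA at chr2:70553942-70554001 (minus strand).
EREG: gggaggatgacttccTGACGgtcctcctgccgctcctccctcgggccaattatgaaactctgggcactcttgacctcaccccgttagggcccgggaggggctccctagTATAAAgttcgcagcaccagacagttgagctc
EPGN: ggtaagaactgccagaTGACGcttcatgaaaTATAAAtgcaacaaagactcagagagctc
TGFA: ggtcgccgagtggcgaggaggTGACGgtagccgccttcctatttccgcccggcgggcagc
TGACG began 125 bases before the start in EREG, 44 in EPGN and 154 in TGFA. The TATAAA letters began 32 bases before the start in EREG and 29 in EPGN.

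Among the ligands, EREG had the largest difference between the groups, and it did not pass the test across all genes. EREG encodes epiregulin, which binds EGFR and ERBB4. Its log2 expression was 10.21, 9.79, 9.65 and 9.51 on CRTC1 arrays 1 to 4 and 9.70, 9.41, 9.13 and 9.0 on the empty vector arrays. CRTC1 replicates 1 and 2 lay above every control array, while CRTC1 replicates 3 and 4 lay below empty vector replicate 1, so the groups overlapped. The means were 9.79 ± 0.302 and 9.31 ± 0.310 (SD, n = 4 each), a log2 difference of 0.48 with a standard error of 0.19 and a 95% interval of 0.064 to 0.90. In fold terms this is 1.40. The limma p was 0.0283 before adjustment and 0.837 after it, and the exact two-sided permutation p was 0.0857, where 4 against 4 arrays allow no p below 0.0286. EREG was the 1 of 9 members at an unadjusted p under 0.05, a threshold reached by 5.94% of all genes and, as higher with CRTC1, by 3.2%. That count was 0 without CRTC1 replicate 1 or 2 or without empty vector replicate 3 or 4, and 2 without empty vector replicate 2, where EPGN joined it. In RNA from whole cultures, more cells expressing a gene and more RNA per cell cannot be told apart.

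**Figure D1:**
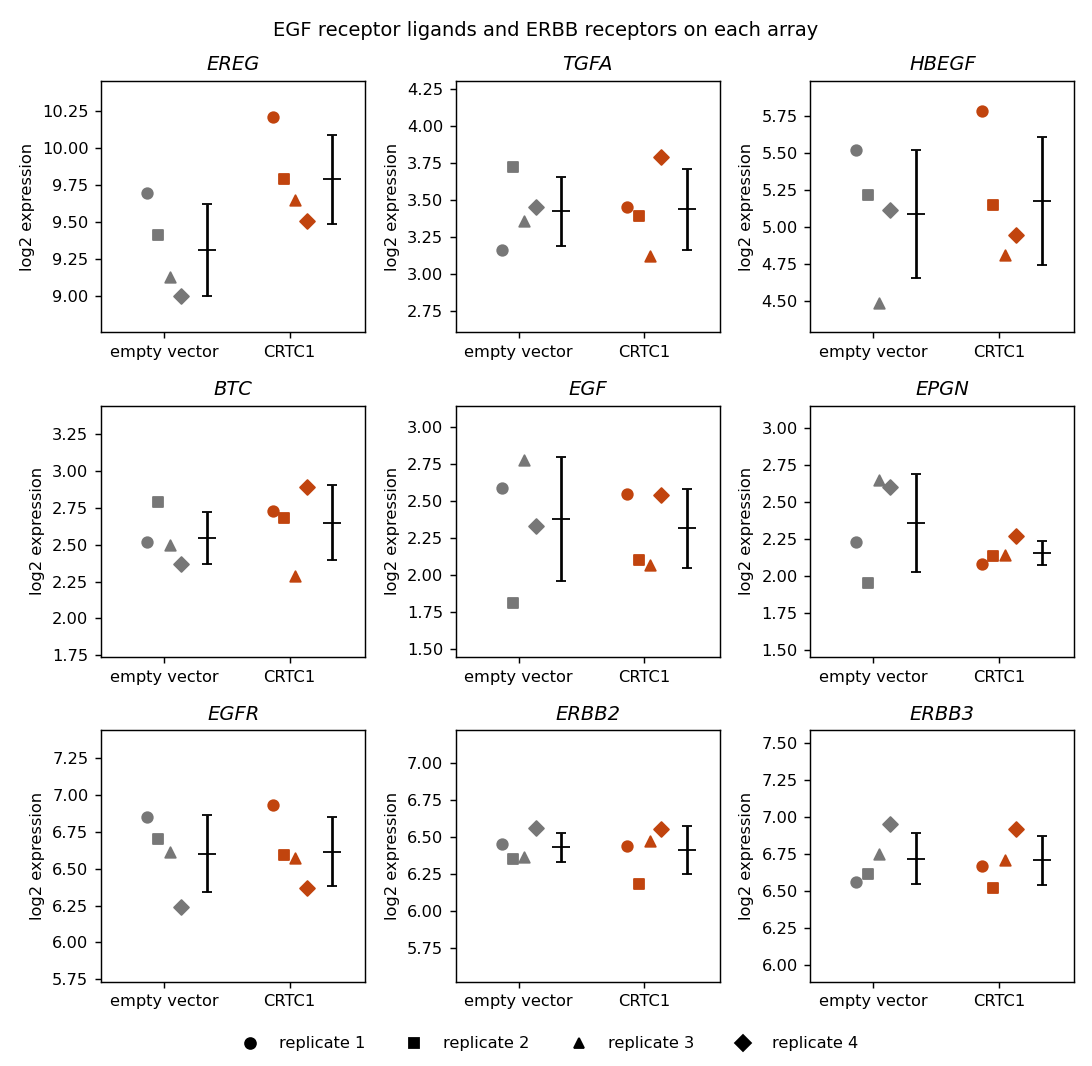
Log2 expression (vertical axes, each spanning 1.7 log2 units) of the 9 genes on every array, with empty vector in grey, CRTC1 in orange, a marker shape for each replicate number and the group mean ± SD (n = 4) as a black bar. EREG on CRTC1 arrays ran from 9.51 to 10.21 against 9.0 to 9.70 on control arrays, and the groups overlapped for every gene.

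TGFA encodes transforming growth factor alpha, an EGFR ligand of many epithelia. Its values were 3.45, 3.39, 3.12 and 3.79 with CRTC1 and 3.16, 3.72, 3.36 and 3.45 with empty vector. The highest and the lowest of the 8 arrays were both CRTC1 arrays, and the group means of 3.44 ± 0.279 and 3.42 ± 0.232 (SD, n = 4 each) were nearly equal. The log2 difference was 0.012 with a 95% interval of -0.35 to 0.37 (limma adjusted p = 0.994).

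HBEGF encodes the heparin-binding ligand, whose precursor is also the diphtheria toxin receptor. Its values were 5.79, 5.15, 4.81 and 4.95 with CRTC1 and 5.52, 5.22, 4.49 and 5.12 with empty vector. It had the widest spread of the 9 genes over the 8 arrays, with an SD of 0.405, and replicate 1 was the highest array of each group. The log2 difference was 0.087 with a 95% interval of -0.49 to 0.66 (limma adjusted p = 0.968), so a change of up to 1.58-fold upward lies within the interval.

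BTC, EGF and EPGN were dim, with means below 2.79, the lower quartile of all named genes. BTC encodes betacellulin, a ligand of EGFR and ERBB4, and lay at 2.73, 2.68, 2.29 and 2.89 with CRTC1 and 2.52, 2.79, 2.50 and 2.37 with empty vector. Both the highest and the lowest array of BTC belonged to the CRTC1 group, and its difference was 0.10 with a 95% interval of -0.22 to 0.42 (limma adjusted p = 0.925). EGF, the founding ligand of the family, lay at 2.55, 2.10, 2.07 and 2.54 with CRTC1 and 2.59, 1.81, 2.78 and 2.33 with empty vector. All 4 EGF values with CRTC1 fell inside the range of the controls, and the difference was -0.061 with a 95% interval of -0.53 to 0.41 (limma adjusted p = 0.975).

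EPGN encodes epigen, an EGFR ligand of low affinity. Its values were 2.08, 2.13, 2.14 and 2.27 with CRTC1 and 2.23, 1.95, 2.65 and 2.60 with empty vector. The CRTC1 arrays were close together, with an SD of 0.0810, and lay inside the range of the controls, whose SD was 0.329. The log2 difference of -0.20 had a 95% interval of -0.54 to 0.14 (limma adjusted p = 0.874, exact permutation p = 0.343). The size of the EPGN difference depended on single control arrays. Without empty vector replicate 2, the lowest array, it was -0.335 at an unadjusted limma p of 0.0228 (adjusted p = 0.902). It was -0.102 without empty vector replicate 3 and -0.118 without empty vector replicate 4.

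The 3 receptors had differences close to 0, and none passed the test. EGFR, the receptor for all 6 ligands, lay at 6.93, 6.59, 6.57 and 6.37 with CRTC1 and 6.85, 6.70, 6.61 and 6.24 with empty vector. Replicate 1 was the highest EGFR array and replicate 4 the lowest in each group, and the means were 6.62 ± 0.232 and 6.60 ± 0.259 (SD, n = 4 each). The difference was 0.019 with a 95% interval of -0.33 to 0.37 (limma adjusted p = 0.990). ERBB2, which has no known ligand and pairs with the other receptors, lay at 6.44, 6.18, 6.47 and 6.55 with CRTC1 and 6.45, 6.35, 6.36 and 6.56 with empty vector. CRTC1 replicate 2 was the lowest ERBB2 array, and the other 3 CRTC1 arrays lay within the range of the controls. The ERBB2 difference was -0.023 with a 95% interval of -0.25 to 0.20 (limma adjusted p = 0.981), which in fold terms runs from 0.840 to 1.15. ERBB3, a neuregulin receptor with little kinase activity of its own, lay at 6.67, 6.52, 6.71 and 6.92 with CRTC1 and 6.56, 6.61, 6.75 and 6.95 with empty vector. For ERBB3 replicate 4 was the highest array of each group, the opposite of EGFR, and the difference was -0.013 with a 95% interval of -0.28 to 0.25 (limma adjusted p = 0.991).

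**Figure D2:**
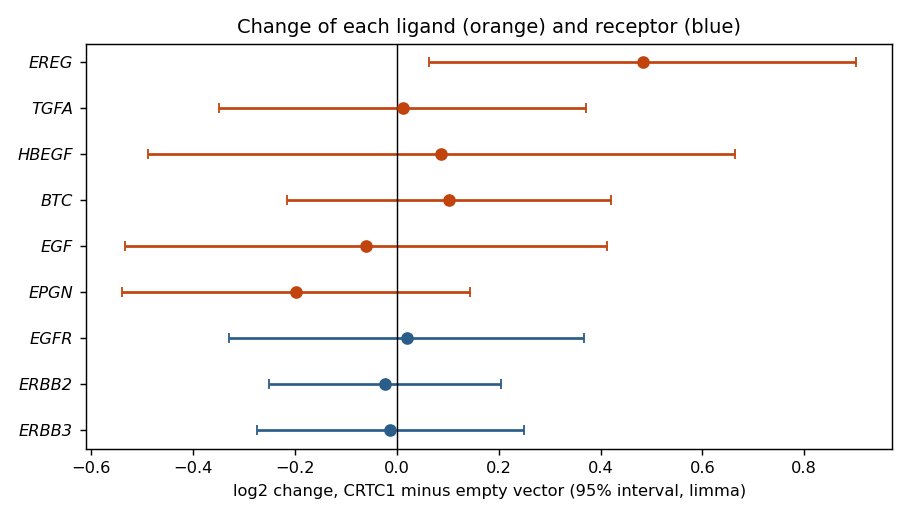
Log2 change of each gene, CRTC1 minus empty vector (horizontal axis), with its 95% interval from limma as a bar, for the 6 ligands in orange and the 3 receptors in blue (n = 4 arrays in each group). The interval of EREG, 0.064 to 0.90, lies above 0 before any adjustment for the number of genes, and the other 8 intervals include 0.

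Across the family, 5 members had a higher mean with CRTC1 and 4 a lower one, where 48.6% of all genes were higher. The median log2 change was 0.012, against -0.0050 for all 22458 genes. The groups did not overlap for 0 of the 9 members, against 3.74% of all genes. Whether members differed from each other in their change was tested for all 36 pairs with the exact two-sided permutation test on the difference between the members within each array. EREG against EGFR was the 1 pair at an unadjusted p under 0.05. The only p under 0.05 that this test can give is 0.0286, so 1 pair of 36 is about the number that chance gives. This pair is described because it had the smallest p of the 36. The separation and the interval given for it make no allowance for that choice. The EREG value minus the EGFR value of the same array was 3.28, 3.20, 3.08 and 3.14 with CRTC1 and 2.85, 2.71, 2.52 and 2.76 with empty vector. EREG and EGFR both fell from replicate 1 to replicate 4 in each group, and the subtraction takes out that shared trend. Every CRTC1 array exceeded every control array on EREG minus EGFR. The changes of EREG and EGFR differed by 0.463 (95% interval 0.267 to 0.659, exact permutation p = 0.0286). Adjusted over the 36 pairs this p was 0.996, which the design fixed: with 0.0286 as the smallest p, at least 21 pairs would have to reach it before any could pass. The adjusted values therefore say nothing for or against a difference between members. Differences of similar size were found between EREG and the remaining members, from 0.38 (BTC) to 0.681 (EPGN). Their exact permutation p ran from 0.0857 (HBEGF) to 0.257 (BTC). EREG against HBEGF differed by 0.395, with a 95% interval of -0.0497 to 0.84.

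Genes whose pattern was most like that of EREG were looked up by the root mean square difference over the 8 arrays, each gene centred on its own mean, among all named genes outside the family. The nearest were DDIT3 (0.0652 log2 units), a transcription factor gene of the stress response, JUN (0.0664), which encodes an AP-1 subunit, and NFKBIA (0.0894), which encodes an inhibitor of NF-kB. DDIT3 ran from 5.43 to 6.10 with CRTC1 and from 5.10 to 5.59 with empty vector, and JUN from 5.78 to 6.71 and from 5.38 to 6.02. All 3 had their highest value of each group on replicate 1, as EREG did, and their groups overlapped. They were chosen for likeness to EREG over these same arrays. The shared peak and the similar changes therefore follow from the choice and are not separate results. Their log2 changes of 0.44, 0.50 and 0.35 did not pass in limma (adjusted p = 0.837, 0.837 and 0.852).

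**Figure D3:**
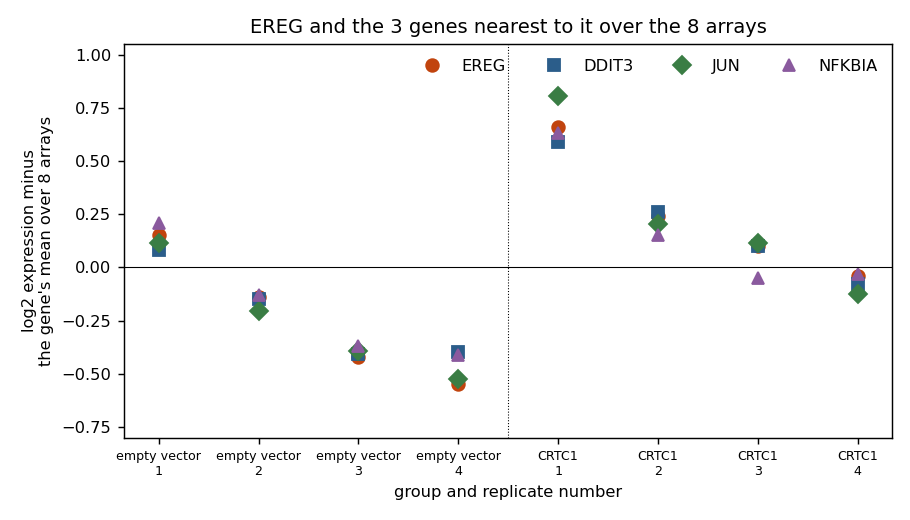
Log2 expression of EREG, DDIT3, JUN and NFKBIA on each array, as the difference from the gene's own mean over the 8 arrays (vertical axis), by group and replicate number (horizontal axis). DDIT3, JUN and NFKBIA were chosen for their closeness to EREG over these arrays. They lie within a root mean square difference of 0.0894 log2 units or less from EREG, and all 4 genes are highest on CRTC1 replicate 1.

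For HBEGF the nearest genes were TNFAIP8 (0.0374), TBC1D3P1-DHX40P1 (0.110) and the cornified envelope gene IVL (0.123). For EGFR they were UNC13C (0.0547), ABCC9 (0.0596) and RRAGC (0.0597), and for TGFA MIR2052HG (0.0620), LINC01625 (0.0799) and FSCN2 (0.0803). EPGN was nearest to PSMA8 (0.0467), ETFBKMT (0.0480) and FBXO43 (0.0558), BTC to ADRA1B (0.0783), TSPYL6 (0.0792) and USP35 (0.0859), and EGF to FAM27E2 (0.107), SRPX2 (0.134) and PPP2R2C (0.135). None of these lists shared a gene with that of EREG, but lists of 3 genes are too short to show whether patterns differ. ERBB2 and ERBB3 varied less over the 8 arrays than the median gene, whose SD was 0.180, and no nearest genes are given for them.

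The remaining receptor and ligands of the family were dim and did not pass the test. ERBB4, a receptor for neuregulins and for several EGFR ligands, had group means of 2.86 with CRTC1 and 2.81 with empty vector, a log2 change of 0.050 (limma adjusted p = 0.967). Of the neuregulin genes, NRG3 had the largest difference, with values of 3.19, 2.96, 2.98 and 3.60 against 3.21, 2.61, 2.52 and 2.90. Its groups overlapped through empty vector replicate 1, and its log2 change of 0.38 had a limma adjusted p of 0.838. NRG1, NRG2 and NRG4 had changes of 0.0085, -0.096 and -0.0061. An unadjusted p under 0.05 was reached by 0 of the 5 measured genes, and by 5.94% of all genes.

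All 14 genes listed for ligand release and its control were measured, and 0 passed in either direction (lowest limma adjusted p = 0.838). Their median log2 change was -0.051, with 4 higher and 10 lower means where 48.6% of all genes were higher. ADAM10, a protease that sheds EGF and BTC, lay at 8.37, 8.36, 8.51 and 8.44 with CRTC1 and 8.81, 8.71, 8.51 and 8.49 with empty vector. The ADAM10 groups overlapped around 8.5, and its change was -0.21 (exact permutation p = 0.0571). FRMD8, a partner of the iRhom proteins that carry the protease ADAM17, had a change of 0.47, and the tetraspanin gene CD9, a partner of the HBEGF precursor, -0.15.

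Of 24 listed adaptors and kinases that relay the receptor signal, 16 were analysed here, and 0 passed (lowest limma adjusted p = 0.837). The median log2 change was 0.021, with 10 higher and 6 lower means where 48.6% of all genes were higher. An unadjusted p under 0.05 was reached by 1 of the 16, and by 5.94% of all genes. This gene was AKT2, a kinase below PI3K. It lay at 7.28, 7.04, 6.96 and 7.22 with CRTC1 and 7.47, 7.19, 7.51 and 7.47 with empty vector. Its difference was -0.29, and the groups overlapped through empty vector replicate 2. The RAF kinase gene ARAF had a change of -0.17 and the docking protein gene GAB1 0.12.

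Of 22 listed inhibitors and endocytic regulators of the receptors, 20 were analysed here and 0 passed (lowest limma adjusted p = 0.837), with a median log2 change of 0.031. At an unadjusted p under 0.05 was 1 higher and 1 lower member, against 3.2% and 2.73% of all genes. USP8, a deubiquitinase that acts on internalised EGFR, lay at 7.33, 7.41, 7.39 and 7.33 with CRTC1 and 7.12, 7.15, 7.26 and 7.13 with empty vector. The USP8 groups did not overlap, which was also the case for 3.74% of all genes, and the change was 0.20 (limma adjusted p = 0.837, exact permutation p = 0.0286). SH3GL2, an endophilin gene that was dim at 1.66 and 2.06, had a change of -0.41, and CBL, the ubiquitin ligase that marks EGFR for degradation, 0.16.

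Target and feedback genes of ERK were measured for all 18 listed, and 0 passed (lowest limma adjusted p = 0.837). Their median log2 change was -0.035, with 6 higher and 12 lower means where 48.6% of all genes were higher. Of the 18, 1 had an unadjusted p under 0.05, against 5.94% of all genes. This was SPRY1, a feedback inhibitor of receptor signalling. Its values were 5.97, 5.91, 5.98 and 6.19 with CRTC1 and 6.11, 6.21, 6.30 and 6.79 with empty vector. CRTC1 replicate 4 fell inside the SPRY1 control range, the other 3 CRTC1 arrays lay below it, and the change was -0.34 (exact permutation p = 0.0571). The related inhibitor gene SPRY2 had a change of -0.17 and the ETS factor gene ETV5 0.18.

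Outside the family, 10 listed CREB and CRTC target genes were measured beside EREG, and 0 passed (lowest limma adjusted p = 0.837). Their median log2 change was 0.11, with 9 higher and 1 lower means where 48.6% of all genes were higher. Of the 10, 2 were higher at an unadjusted p under 0.05, as were 3.2% of all genes. These were NR4A2, at 1.55, and CREM, a cAMP-responsive repressor and activator gene, at 0.19. CREM lay at 3.84, 3.81, 3.69 and 3.68 with CRTC1 and 3.62, 3.48, 3.52 and 3.66 with empty vector, a narrow separation of the groups (exact permutation p = 0.0286) of the kind seen, as higher with CRTC1, in 1.68% of all genes. FOSB, an AP-1 subunit gene, had a change of 0.17.

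**Figure D4:**
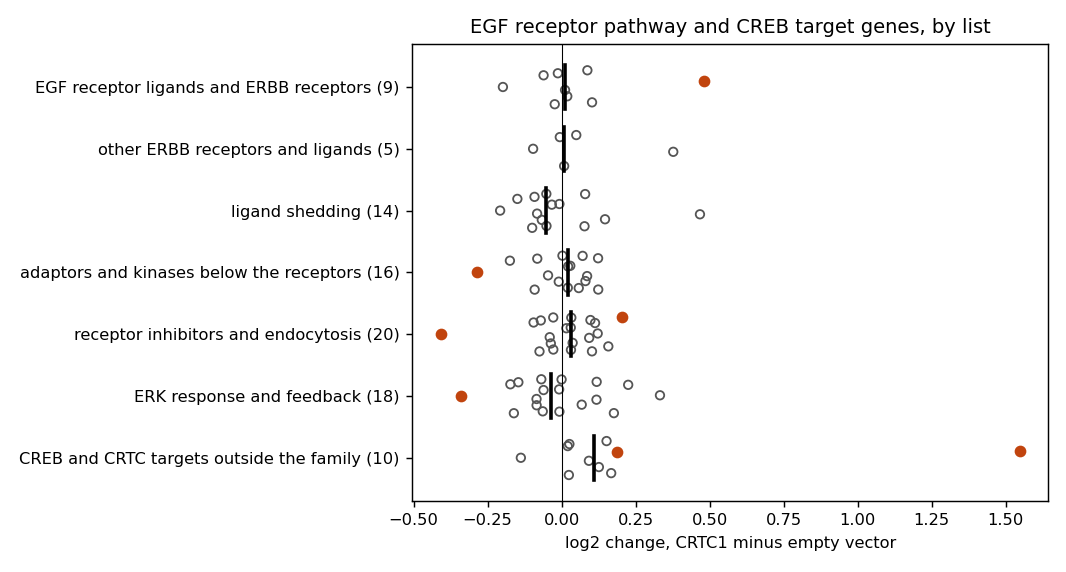
Log2 change, CRTC1 minus empty vector (horizontal axis), of each measured gene by list, with the number of genes in brackets, the list median as a black bar and genes at an unadjusted limma p under 0.05 filled in orange (n = 4 arrays in each group). EREG at 0.48 is the filled point of the family, and the medians of the lists run from -0.051 to 0.11.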

How the data were processed

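Total RNA from 8 samples, 4 per group, was labelled with biotin by the Affymetrix whole-transcript sense target protocol, per the labels. The deposited log2 values, 1 per probe set and array, run from 0.832 to 12.87, and their log2 scale was read from the values. The submitters' processing notes list Partek, with no version or role. How background, summarisation and normalization were handled, and on which build, was not given in the sources used here. Array distributions were similar, so these values cannot show a shift common to most genes.

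Of 23786 probe sets, 22458 had 1 gene symbol, 0 several and 1328 were unnamed here. Symbols came from the platform annotation and all matched RefSeq (GRCh38.p14) by Entrez identifier. One linear model with a coefficient per group was fitted to all 8 arrays with limma 3.58.1 in R 4.3.3, with empirical Bayes moderation, no block and Benjamini-Hochberg adjustment over 22458 genes. The fit was tested on simulated data. Intervals are 95%, and the number of arrays limits precision.

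The family and all lists were chosen with earlier results of these data known. Named genes were the 9 members, CRTC1, all measured remaining family genes, the 3 smallest p-values of each other pathway list, and the 3 nearest genes of each member that varied more than the median gene. Marker genes of cell types were named outside this rule, after their values were seen. Promoter sequences are RefSeq's. Alternatives covered a replicate block, normalization, centring, filters on dim genes, unnamed probe sets, variance models, array weights and left-out arrays.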

Additional observations from a re-analysis of the deposited data

Results flagged for a closer look

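Dixon's test was run on 102 groups of 4 arrays among the named genes. It found an array far from its group in 4 of them, where chance gives about 5, and none of these was among the 9 family members. For the neuregulin gene NRG2, empty vector replicate 1 read 1.99 while the remaining controls read 2.45 to 2.49. For AKT2, empty vector replicate 2 read 7.19 and its fellow controls 7.47 to 7.51. TBC1D3P1-DHX40P1 read 2.72 in CRTC1 replicate 1 and 1.76 to 1.88 in the remaining CRTC1 arrays. ETFBKMT read 3.03 in CRTC1 replicate 4 and 2.84 to 2.86 in the remaining ones.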

How the results depend on the processing

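EREG stayed higher with CRTC1 and short of the adjusted threshold in all 20 alternatives, with a log2 change between 0.343 and 0.612 and an adjusted limma p between 0.539 and 0.970. With arrays or replicate numbers left out, members at an unadjusted p under 0.05 numbered 0 to 2. Without replicate 2 the 1 such member was EPGN, at an unadjusted limma p of 0.0470, with EREG at 0.0664. Genes past the adjusted threshold numbered 2 with a variance trend and robust moderation, and genes at an unadjusted p under 0.05 numbered 829 instead of 1333 when genes under the median level were left untested. No member passed in any alternative. Several members with changes near 0 took the other sign. TGFA was at -0.00899 with quantile normalization and -0.0150 with array weights. With arrays left out, the log2 change ran from -0.108 to 0.128 for TGFA, -0.119 to 0.232 for HBEGF, -0.0378 to 0.222 for BTC, -0.249 to 0.155 for EGF, -0.101 to 0.102 for EGFR, -0.0714 to 0.0547 for ERBB2 and -0.0835 to 0.0644 for ERBB3. EPGN stayed lower, between -0.335 and -0.0951. The causes were not tested. BTC, EGF and EPGN fell below the filters on dim genes and TGFA below the stricter one, so those fits gave no value for them.

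The labels do not state a pairing. Deviations of arrays with equal numbers correlated at 0.251, 0.0385, 0.0640 and 0.117, and all 8 arrays correlated best with their own number, a hint from the data and not the design. With the replicate number as a block, EREG had an unadjusted limma p of 0.000623 and an adjusted p of 0.539, members at an unadjusted p under 0.05 numbered 1, all genes at that threshold numbered 1677, and no call changed.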

Other observations

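EPGN, EREG, AREG and BTC lie in this order in a cluster on chromosome 4 in the RefSeq table of GRCh38.p14. Uncharacterised non-coding loci lie between AREG and BTC. The measured members of this cluster had log2 changes of -0.20 (EPGN), 0.48 (EREG) and 0.10 (BTC). The protein-coding neighbour before EPGN, MTHFD2L, a mitochondrial folate enzyme gene named after its value was seen, had a change of 0.70 (limma adjusted p = 0.837).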
